A study of Mus musculus with 6 samples.

Results

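Saa3, Lcn2, Slpi, S100a8, S100a9, Ltf, Camp, Hp and Il33 encode proteins that cells release during inflammation, and they are described here across the cell classes of mouse tumours. The 9 genes were chosen by name, with knowledge of how they differed between the tumour lines, out of 31053 features in each of 6 single-cell libraries. Every gene symbol matched 1 row in every library. The tumours were grown by subcutaneous implantation of Yumm5.2, a cultured mouse melanoma line, into C57BL/6 mice. Every line, the control included, expressed shCdkn2a, a short hairpin RNA that lowers Cdkn2a, a gene for inhibitors of the cell cycle. The control line also carried shControl, and the knockdown lines carried shSlc39a9 #1 or #2, which target the zinc transporter gene Slc39a9 and are called hairpin 1 and hairpin 2. From the time tumours could be felt, mice received 200 µg of anti-PD1, an antibody against an inhibitory receptor of T cells, or of IgG, 3 times a week. There was 1 library for each of the 3 lines and 2 treatments, so the control groups had 1 library each and the knockdown groups 2, which were different lines. The number of tumours behind a library is not given in the sources used here.

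The acute-phase response is the rapid change in secreted proteins that follows injury or infection, driven in many tissues by interleukin-1, interleukin-6 and tumour necrosis factor acting through NF-kB, STAT3 and C/EBP transcription factors. Serum amyloid A proteins such as Saa3 and the haemoglobin-binding protein haptoglobin (Hp) are acute-phase proteins. Lipocalin 2 (Lcn2) withholds iron-loaded siderophores from bacteria, Slpi inhibits serine proteases of neutrophils, and S100a8 and S100a9 form the metal-binding calprotectin complex. Lactoferrin (Ltf) and cathelicidin (Camp) are granule proteins that maturing neutrophils make in the bone marrow, and Il33 is a cytokine stored in the nucleus of tissue cells and released on damage. In tumours several of these genes are used as marks of neutrophils, although epithelial and mesenchymal cells can also make them.

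The start regions of 5 genes are printed because the comparison of tumour cells with neutrophils turns on them, and because C/EBP and NF-kB factors are the textbook regulators of the family. Each is the RefSeq window from 250 bases before to 50 bases after the gene's start on GRCm38.p6, read 5′ to 3′ on the gene's own strand. Capitals mark matches on either strand to the C/EBP letters TTGCNNAA or to the NF-kB letters, which are GGG, any 5 bases and CC.
Saa3 (chr7:46715627-46715926, minus strand): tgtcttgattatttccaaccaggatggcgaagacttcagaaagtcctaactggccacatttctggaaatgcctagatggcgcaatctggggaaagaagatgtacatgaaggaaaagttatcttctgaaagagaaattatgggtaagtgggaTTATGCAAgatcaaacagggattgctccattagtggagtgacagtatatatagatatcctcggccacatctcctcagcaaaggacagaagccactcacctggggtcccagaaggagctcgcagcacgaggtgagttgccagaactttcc
Lcn2 (chr2:32387690-32387989, minus strand): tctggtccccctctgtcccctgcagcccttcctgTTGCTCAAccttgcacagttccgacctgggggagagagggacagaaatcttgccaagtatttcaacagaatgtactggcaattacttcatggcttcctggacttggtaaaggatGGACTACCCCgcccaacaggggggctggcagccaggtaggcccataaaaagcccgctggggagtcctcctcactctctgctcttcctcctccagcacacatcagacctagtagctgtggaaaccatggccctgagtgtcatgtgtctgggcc
Slpi (chr2:164356458-164356757, minus strand): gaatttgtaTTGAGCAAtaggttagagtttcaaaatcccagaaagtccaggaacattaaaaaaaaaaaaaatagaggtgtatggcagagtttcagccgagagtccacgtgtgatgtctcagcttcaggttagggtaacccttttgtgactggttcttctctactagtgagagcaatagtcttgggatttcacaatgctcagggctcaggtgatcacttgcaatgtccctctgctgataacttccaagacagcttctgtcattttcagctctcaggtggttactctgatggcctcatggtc
S100a9 (chr3:90695672-90695971, minus strand): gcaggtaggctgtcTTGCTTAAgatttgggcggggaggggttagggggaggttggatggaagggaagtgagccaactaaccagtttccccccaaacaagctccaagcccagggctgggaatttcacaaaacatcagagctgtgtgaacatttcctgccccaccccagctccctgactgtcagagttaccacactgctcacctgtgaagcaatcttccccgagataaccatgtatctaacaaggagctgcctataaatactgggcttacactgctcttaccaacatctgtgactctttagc
S100a8 (chr3:90668821-90669120, plus strand): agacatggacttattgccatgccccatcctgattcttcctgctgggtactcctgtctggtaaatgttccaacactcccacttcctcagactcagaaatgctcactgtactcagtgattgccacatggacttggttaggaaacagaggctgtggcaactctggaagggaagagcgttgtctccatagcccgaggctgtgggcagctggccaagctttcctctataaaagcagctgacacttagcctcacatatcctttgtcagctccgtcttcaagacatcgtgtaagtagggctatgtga
Of the 8 members with an entry, 6 held the C/EBP letters (Saa3, Lcn2, Slpi, S100a9, Ltf and 1 of the 2 Il33 start windows), against 10.8% of all 32851 windows. The NF-kB letters were in 3 (Lcn2, Ltf and Camp), against 50.8% of all windows, and in Lcn2 they are the second run of capitals and do not overlap the first. The STAT letters TTCNNNGAA were in 0 of the 8, against 8.30% of all windows. S100a8 held none of these letters in its window. S100a8 (ENSMUSG00000056054, 90668978 to 90670035) and S100a9 (ENSMUSG00000056071, 90692632 to 90695721) are protein-coding neighbours on chromosome 3 of GRCm38, 22596 bases apart and on opposite strands.

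Cells were placed in 3 classes by fixed UMI counts of genes that are not members, where a UMI (unique molecular identifier) stands for 1 captured transcript. Tumour cells had at most 1 UMI of Tyrobp, none of Ptprc and at least 5 of Spp1, Grem1 and Cdkn2a together. Macrophages had at least 3 UMIs of the complement genes C1qa, C1qb and C1qc, and neutrophils had at least 1 UMI of the receptors Csf3r or Cxcr2. A cell that met more than 1 rule was left out of all 3. The classes held between 2867 and 5133 tumour cells, between 1157 and 1674 macrophages and between 52 and 641 neutrophils per library. Neutrophils were 6.04% and 7.34% of cells in the control libraries, 1.03% and 1.62% with hairpin 1 and 1.87% and 2.47% with hairpin 2, IgG before anti-PD1. Levels below are CPM, the UMIs of a gene per 1000000 UMIs of the same class and library, and bracketed ranges are exact 95% Poisson intervals, which cover counting error only.

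The class names were checked against marker lists. The 14 neutrophil markers summed to between 6652 and 12456 CPM in neutrophils and between 41.6 and 87.0 CPM in tumour cells, where Csf3r and Cxcr2 were at 0 by the gates. The 12 macrophage markers summed to between 20854 and 25905 CPM in macrophages and between 65.8 and 99.1 CPM in tumour cells. Both lists include the gate genes of their class, C1qa, C1qb and C1qc among the macrophage markers, so part of these gaps was set by the gates. The neutrophil class was not pure: macrophage markers reached 2845 to 4390 CPM and the 3 tumour gate genes 901 to 3290 CPM in it, and between 27.0% and 37.1% of its cells rested on 1 UMI of the gate. In the tumour class the 7 fibroblast and pericyte markers summed to 816 to 967 CPM, against 574 to 1066 CPM in cells that met no rule. Whether the class holds host stromal cells was not tested. The tumour class had little of the pigment cell programme. Its 8 melanoma markers summed to between 75.9 and 101 CPM, most of it Pax3, with Tyr at or below 1.49 CPM and Sox10 at or below 0.0440 CPM, while macrophages had 117 to 143 CPM of the same list.

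Slc39a9, the target of the hairpins, was at 22.8 and 21.2 CPM in control tumour cells, 8.15 and 8.37 with hairpin 1, and 12.1 and 11.1 with hairpin 2. The libraries held between 58859821 and 83204249 UMIs. Between 63.2% and 89.5% of the barcode names of the smaller library recurred in another library. Cells with the same name in 2 libraries had a median profile correlation of 0.512 to 0.597, and cells next to them in UMI rank 0.515 to 0.600, so cells that shared a name were no more alike than their neighbours.

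Lcn2, Il33 and Slpi had most of their UMIs in tumour cells in 6 of 6 libraries, and Saa3 and S100a8 in 5 of 6. Tumour cells also held most UMIs of all genes together in every library. They had 4.45e+07 of 5.78e+07 with hairpin 1 and anti-PD1, and 6.19e+07 of 7.21e+07 with hairpin 2 and IgG. The shares below are not corrected for that. Of all UMIs of the gene in a library, tumour cells held between 84.5% and 93.1% for Lcn2, 89.5% and 95.5% for Il33, 65.3% and 85.2% for Slpi, 43.5% and 80.3% for S100a8, and 40.4% and 95.7% for Saa3. The exception for both was the hairpin 1 library with anti-PD1, where macrophages held 41.2% of Saa3 UMIs and neutrophils 46.2% of S100a8 UMIs. S100a9 was the opposite, with 84.1% to 90.7% of its UMIs in neutrophils and 2.34% to 4.11% in tumour cells. Hp was spread over classes, with 21.6% to 59.8% in tumour cells, 14.9% to 43.7% in neutrophils and 18.7% to 27.2% in cells that met no rule. Per UMI captured, neutrophils nevertheless had more Slpi (6.78 to 36.0 times), S100a8 (23.3 to 153 times), Lcn2 (2.74 to 15.6 times) and Hp (45.7 to 233 times) than tumour cells in 6 of 6 libraries. Saa3 was higher in neutrophils than in tumour cells in 5 of 6 libraries (0.128 to 3.66 times). Il33 was lower in neutrophils than in tumour cells in 6 of 6 libraries. Cells that met no rule were above tumour cells in 4 of 6 libraries for Saa3 and 5 for Slpi. They were above in 2 for S100a8, 1 for Lcn2 and 0 for Il33.

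**Figure D1:**
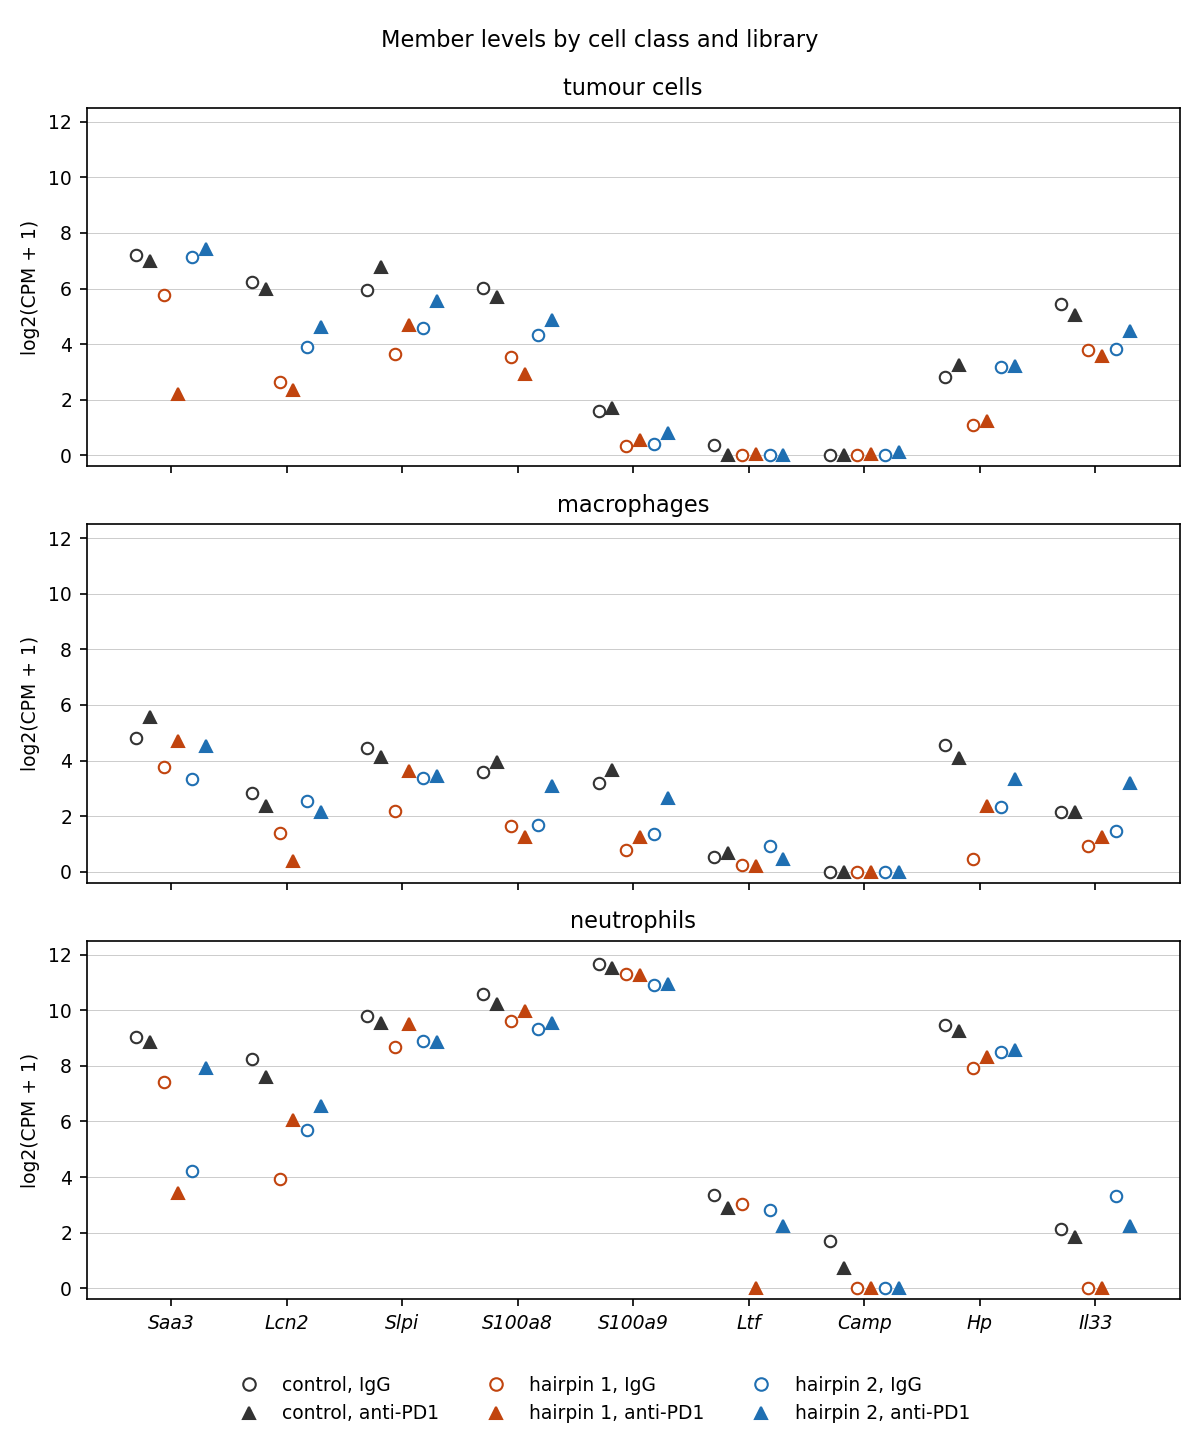
Level of the 9 genes, as log2(CPM + 1), in tumour cells, macrophages and neutrophils, with 1 symbol for each of the 6 libraries (circles IgG, triangles anti-PD1, colours the 3 lines). In tumour cells Lcn2, Slpi, S100a8, S100a9 and Il33 are highest in both control libraries, and Saa3 is lowest in the hairpin 1 library with anti-PD1.

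Saa3, a serum amyloid A made outside the liver, was at 147 CPM [144 to 150] with IgG and 128 [125 to 130] with anti-PD1 in control tumour cells. With hairpin 1 it was at 53.2 [51.3 to 55.2] and 3.55 [3.02 to 4.15], and with hairpin 2 at 139 [136 to 142] and 171 [168 to 175]. The hairpin 1 libraries were low and differed from each other, while the hairpin 2 libraries overlapped the controls. Few cells carried these values. In control tumour cells with IgG, 336 of 4591 cells had Saa3 and the 7 highest held more of its 9877 UMIs than all the rest, with 1825 in a single cell. Over the 6 libraries the 10 highest tumour cells held between 43.8% and 89.6% of all Saa3 UMIs. With each cell counted for at most 10 UMIs, a setting chosen after the data were seen, Saa3 was at 19.4 and 19.8 CPM in control, 4.78 and 2.41 with hairpin 1 and 21.2 and 23.4 with hairpin 2. The gap between the hairpin 1 libraries was smaller on that scale.

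**Figure D2:**
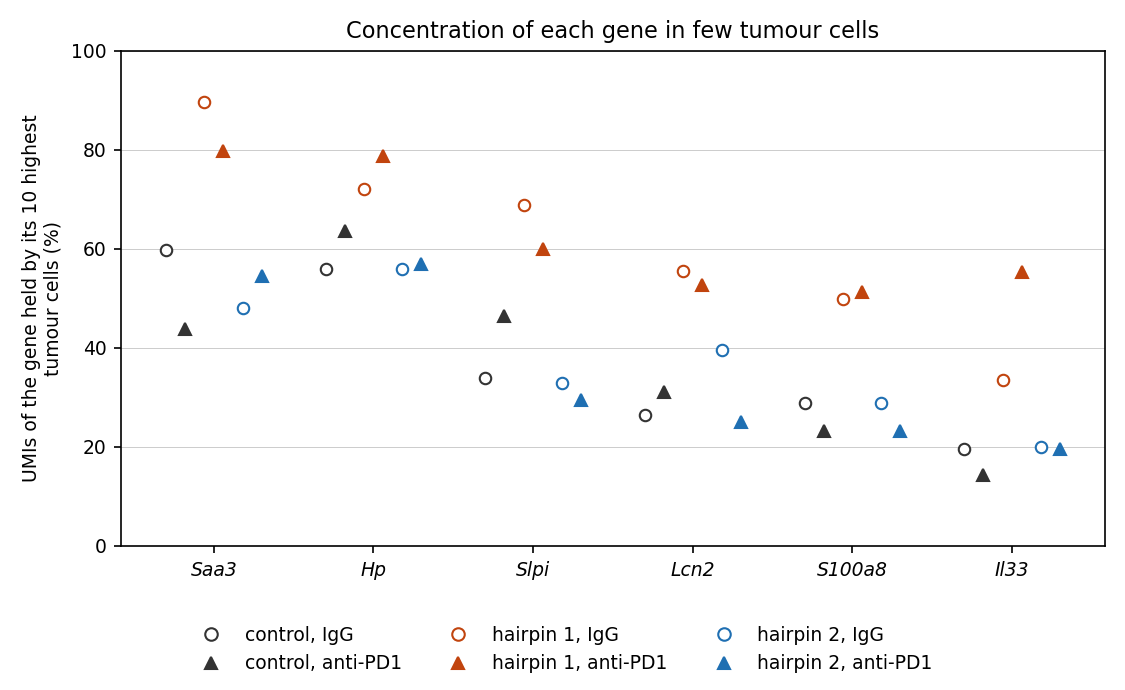
Percentage of a gene's tumour cell UMIs that its 10 highest cells held, for 6 genes and 6 libraries. Saa3 and Hp lie between 43.8% and 89.6%, and Il33 between 14.3% and 55.3%, and the hairpin 1 libraries are the 2 highest for each gene.

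Tumour cells with Saa3 more often carried other members. Tumour cells were thinned to 5000 UMIs, which removes differences in depth, and split by whether a Saa3 UMI was left. Cells with fewer UMIs were left out, which kept 3779 of 4591 tumour cells in control with IgG. Lcn2 was found in 47.7% and 50.3% of Saa3 cells in the control libraries, against 6.61% and 5.37% of the other cells. With hairpin 1 the shares were 46.4% against 1.32% and 9.52% against 0.922%, and with hairpin 2 they were 23.4% against 1.66% and 31.0% against 3.05%. Hp was in 9.52% to 21.3% of Saa3 cells and in 0.240% to 1.05% of the others. S100a8 and Slpi were also more frequent in Saa3 cells in 6 of 6 libraries, and Il33 in 5 of 6. S100a9 was more frequent in 2 of 6. Mmp3, a matrix-degrading stromelysin that is no member, was in 66.7% to 78.6% of Saa3 cells and 18.5% to 44.5% of the rest. The hairpin 1 libraries had 28 and 21 Saa3 cells, so their shares rest on few cells.

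**Figure D3:**
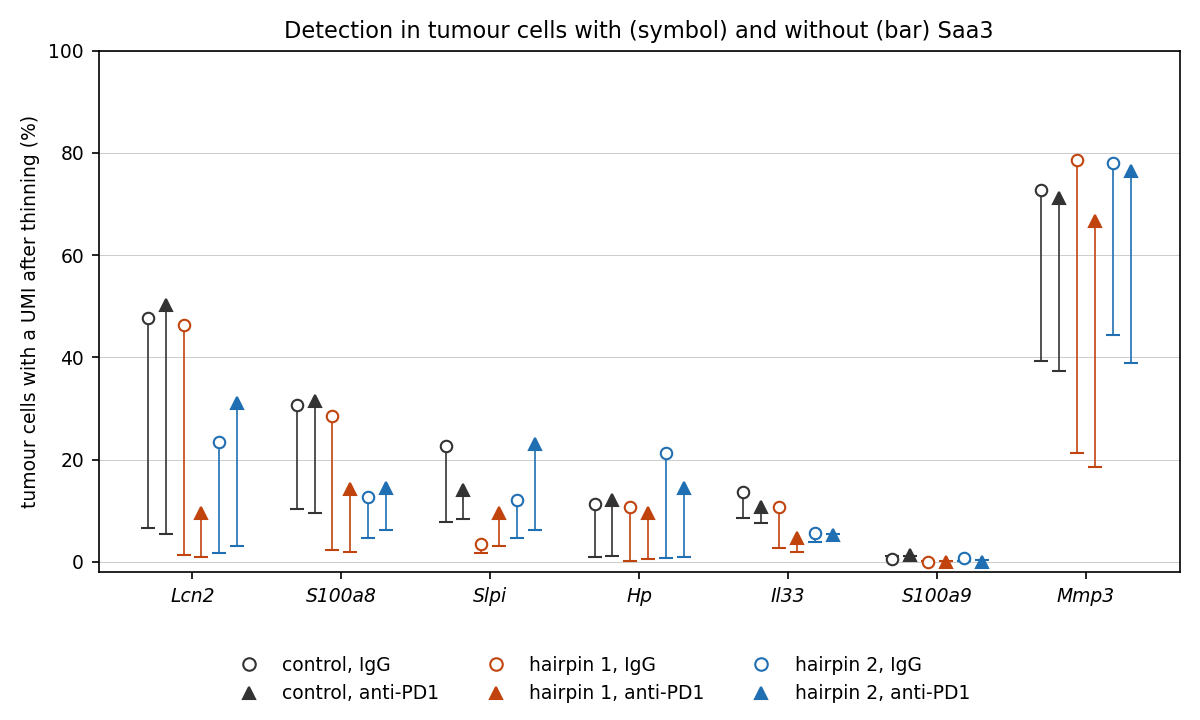
Percentage of tumour cells with at least 1 UMI of each gene after thinning to 5000 UMIs, in cells with Saa3 (circles IgG, triangles anti-PD1) and without it (bars), for each of 6 libraries; a line joins the 2 values of a library. Lcn2, S100a8, Slpi, Hp and Mmp3 are more frequent in Saa3 cells in 6 of 6 libraries, and S100a9 stays below 1.5% in both.

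Lcn2, the iron-withholding lipocalin, was at 73.6 and 62.8 CPM in control tumour cells, 5.17 and 4.14 with hairpin 1, and 13.99 and 23.2 with hairpin 2. The groups did not overlap, and hairpin 1 was the lowest line under both treatments. In neutrophils Lcn2 was at 303 and 195 CPM in control, 14.2 and 64.7 with hairpin 1, and 50.5 and 92.7 with hairpin 2, where the hairpin 1 IgG value rested on 2 UMIs. Slc22a17, described as a receptor for Lcn2, was between 0.468 and 1.42 CPM in tumour cells, and the other, Lrp2, at or below 0.0743 CPM.

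Slpi, the protease inhibitor, was at 60.6 CPM [58.7 to 62.4] and 109 [106 to 111] in control tumour cells, 11.4 [10.5 to 12.4] and 24.5 [23.0 to 26.0] with hairpin 1, and 23.0 [21.8 to 24.2] and 46.0 [44.4 to 47.6] with hairpin 2. The knockdown libraries lay below both controls, and anti-PD1 lay above IgG in 3 of 3 lines. In neutrophils Slpi was at 888 and 738 CPM in control, against 411 to 724 in the knockdown libraries, a narrower gap. Macrophages had 20.7 and 16.5 CPM in control and 3.55 to 11.4 in the knockdown libraries.

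S100a8 and S100a9 are usually made together in neutrophils, and they parted in tumour cells. S100a8 was at 63.9 and 51.2 CPM in control tumour cells, 10.6 and 6.59 with hairpin 1, and 18.9 and 28.2 with hairpin 2. S100a9 in the same cells was at 1.98 and 2.21 CPM in control, against 0.244 to 0.733 in the knockdown libraries. Tumour cells therefore had 32.3 and 23.1 S100a8 UMIs for each S100a9 UMI in control, 43.3 and 13.95 with hairpin 1, and 55.6 and 38.5 with hairpin 2. Neutrophils had 0.314 to 0.470 in the 6 libraries, and macrophages, with between 4 and 79 S100a9 UMIs, had 1.00 to 3.00. The tumour and neutrophil ranges were far apart and their 95% intervals did not meet in any library.

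These ratios bear on free RNA, which leaves transcripts of broken cells in others and keeps the ratio of its source. At the neutrophils' ratio, the S100a9 UMIs found in tumour cells would come with only 0.613% to 2.95% of the S100a8 UMIs found there. The same reckoning gave 0.350% to 0.882% for Slpi and 0.302% or less for Lcn2, Saa3 and Il33. S100a9 itself was set beside 5 other genes of the neutrophil marker list, and they did not keep 1 ratio. Per S100a9 UMI, Retnlg had 0 to 0.158 UMIs in tumour cells and 0.0198 to 0.153 in neutrophils, Il1r2 0.629 to 1.48 and 0.353 to 0.850, and G0s2 0.133 to 3.54 and 0.146 to 0.311. Clec4d (7.77 to 23.5 against 0.373 to 0.500) and Mmp9 (7.83 to 178 against 0.0424 to 0.208) were far higher in tumour cells. After thinning to 1000 UMIs, S100a9 was in 0% to 0.331% of tumour cells (up to 2.64% unthinned) and 31.4% to 54.5% of neutrophils (up to 72.7%), and S100a8 in 0.512% to 3.74% (up to 17.7%) and 22.9% to 51.0% (up to 63.6%). Median depths were 9536 to 14189 UMIs in tumour cells and 985 to 1272 in neutrophils. Cells below 1000 UMIs were left out of the shares thinned to that depth, here and below, so part of the neutrophil class is missing from them. The thinned share of S100a9 was lower in tumour cells than in macrophages (0.0810% to 0.870%) in 6 of 6 libraries. Whether tumour cells make S100a9 was not tested. Its lower tumour cell values in the knockdown libraries stood beside fewer neutrophils in those libraries, whose part was not tested.

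**Figure D4:**
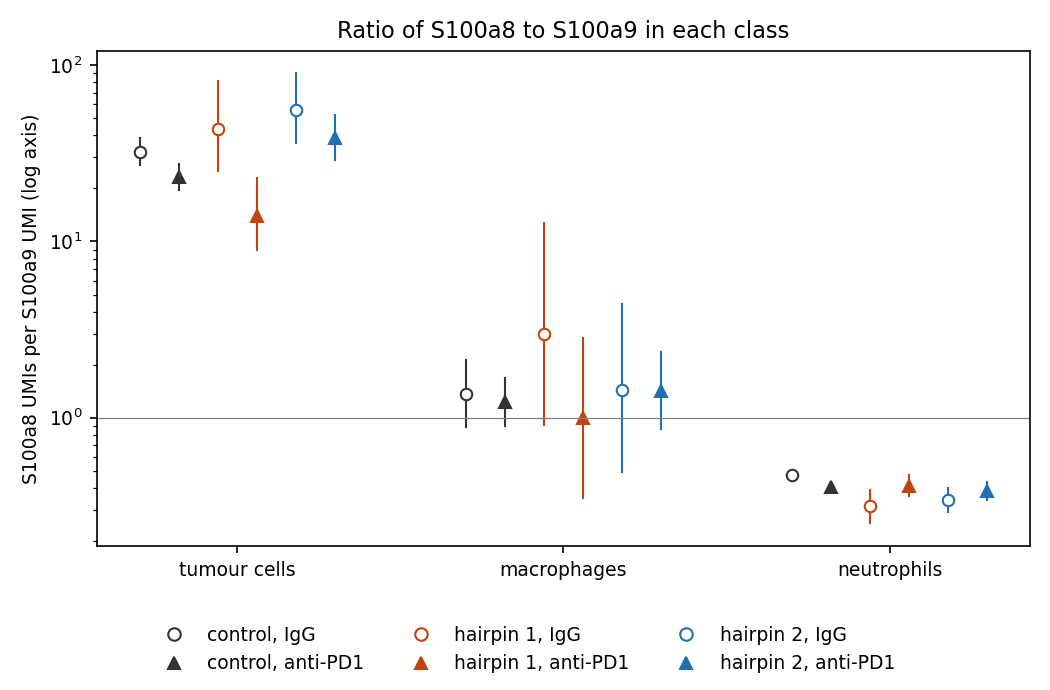
Number of S100a8 UMIs per S100a9 UMI, on a log axis, in the 3 classes and 6 libraries, with exact 95% intervals as vertical lines. Tumour cells lie between 13.95 and 55.6, macrophages between 1.00 and 3.00 and neutrophils between 0.314 and 0.470.

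In neutrophils S100a8 was at 1544 and 1194 CPM in the control libraries, above the 647 to 1006 of the knockdown libraries, and S100a9 at 3283 and 2944 CPM, above 1901 to 2510. The class was then split, after thinning to 500 UMIs, by whether S100a9 was found. S100a8 was in 66.3% to 76.9% of cells with S100a9 and in 7.89% to 14.5% of those without, and Slpi in 35.8% to 49.2% and 7.69% to 17.99%. Lcn2 was also more frequent in the cells with S100a9 in 6 of 6 libraries. Saa3 went the other way in the control libraries, at 5.02% and 7.99% of cells with S100a9 against 10.5% and 14.03% of cells without it. In the knockdown libraries the order varied, with 0% against 3.85% and 1.64% against 0% for hairpin 1, and 2.99% against 1.32% and 8.42% against 3.74% for hairpin 2. In the class as a whole Saa3 was at 530 and 467 CPM in control, 170 and 9.70 with hairpin 1, and 17.8 and 241 with hairpin 2, and 24 UMIs in 1 cell made up the hairpin 1 IgG value. Given the tumour and macrophage genes present in this class, the cell of origin of its Saa3 was not tested.

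Hp, which binds free haemoglobin, was a neutrophil gene by level, at 707 and 615 CPM in control, 241 and 320 with hairpin 1, and 365 and 380 with hairpin 2. In tumour cells it was at 5.96 and 8.52 CPM in control, 1.14 and 1.37 with hairpin 1, and 7.98 and 8.31 with hairpin 2, so the hairpin 2 libraries overlapped the controls, as for Saa3. In macrophages it was at 22.8 and 16.2 CPM in control and 0.355 to 8.98 in the knockdown libraries. Cd163, the macrophage receptor for haptoglobin bound to haemoglobin, was at 162 and 170 CPM in control macrophages and 26.0 to 39.0 in the knockdown libraries. Cd163 was the 1 gene of 12352 (0.0081%) that edgeR called between knockdown and control macrophages (log2 -2.46 ± 0.13, adjusted p 0.00246). That fit takes both libraries of a line as independent and the control is 1 line, so knockdown and line cannot be told apart in it.

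Il33, the nuclear cytokine, was at 42.8 and 31.9 CPM in control tumour cells, 12.7 and 10.9 with hairpin 1, and 13.3 and 21.1 with hairpin 2, and no knockdown library reached the controls. Here both hairpins were close under IgG. Macrophages had 0.888 to 8.25 CPM, and neutrophils 0 to 8.91 CPM from at most 4 UMIs. Il1rl1, the receptor of Il33, was itself found in tumour cells at 112 and 121 CPM in control, 83.0 and 137 with hairpin 1, and 155 and 165 with hairpin 2, and was lower in macrophages, at 10.9 to 36.6 CPM.

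Ltf and Camp were nearly missing. Ltf had 0 to 10 UMIs in neutrophils of any library (0 to 9.10 CPM), and Camp had 2 and 1 UMIs in control neutrophils and 0 in the 4 knockdown libraries, where 0 of 52 to 202 cells allows a share of up to 5.77% to 1.49% of cells with a UMI. In tumour cells Ltf stayed at or below 0.282 CPM, with 12 UMIs of it in a single cell, and Camp at or below 0.0733 CPM. Macrophages had 0 Camp UMIs. No fold is given for either gene.

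Because the 9 genes were picked with the knockdown contrast in view, their differences between knockdown and control are a description. In tumour cells 5 of the 7 members that passed the filter on low counts (Lcn2, Slpi, S100a8, S100a9 and Il33) were lower in all 4 knockdown libraries than in both controls, against 14.6% of all 15776 genes tested. On the CPM scale 29% of genes were above both controls, and with TMM scaling, which evens out composition, 21.4% were below and 21% above with the same 5 members below. The fitted log2 differences, given with their standard error, were -2.64 ± 0.71 for Lcn2, -2.37 ± 0.33 for S100a9, -1.91 ± 0.57 for S100a8, -1.79 ± 0.35 for Slpi and -1.44 ± 0.30 for Il33. The S100a9 value rests on 0.244 to 2.21 CPM, beside fewer neutrophils in the knockdown libraries, whose part was not tested. Saa3 (-0.64 ± 1.21) and Hp (-0.66 ± 0.92) were within their error of 0, but these values average 2 lines that differed. Fitted by line, Saa3 was at -2.64 ± 0.80 with hairpin 1 and 0.19 ± 0.70 with hairpin 2. Hp was at -2.60 ± 0.17 and 0.13 ± 0.13. The fit by genotype takes both libraries of a line as independent. In the fit by line, the IgG and anti-PD1 libraries are a line's only replicates. Neither error measures the spread between independent lines of a hairpin. In macrophages 5 of 7 (Saa3, Slpi, S100a8, S100a9 and Hp) were below, against 9.45% of 12352 genes. In neutrophils 6 of 6 were below, against 9.91% of 7640 genes (13.1% with TMM scaling, with 9.61% above). The 14 neutrophil markers in that class summed to 12456 and 9937 CPM in control and 6652 to 8343 in the knockdown libraries. The part of the class's make-up in the member values was not tested. edgeR called 1 neutrophil gene between knockdown and control (0.0131%), which was no member. Counting the untested Camp as well, 7 of the 9 members were below, and 4 were with a neutrophil rule of 2 UMIs. All knockdown libraries held fewer neutrophils, and in bulk sums of macrophages fewer admixed neutrophil transcripts and less RNA per cell cannot be told apart. The neutrophil markers in macrophages summed to 993 and 1000 CPM in control and 559 to 793 in the knockdown libraries. That sum does not measure admixture alone. In control with IgG, macrophages had 54 Clec4d, 24.3 Mmp9 and 16.2 Il1r2 UMIs per S100a9 UMI, against 0.442, 0.0724 and 0.850 in neutrophils. Retnlg (0.158 against 0.153) and G0s2 (0.0789 against 0.171) did not show this excess. The part of admixed transcripts in the macrophage values was not tested.

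Other genes of the response are given from 4 lists. Of the inducing cytokines, receptors and factors, 26 of 28 were tested in tumour cells, and 14 lay below both controls in all 4 knockdown libraries and 4 above. The shares over all tumour cell genes were 14.6% below and 29% above, or 21.4% and 21% with TMM scaling, and each list below is to be read against them. The 3 most abundant were Nfkbia, the NF-kB inhibitor, at 514 and 532 CPM in control and 398 to 515 in the knockdown libraries; Socs3, a STAT3 target, at 449 and 469 against 266 to 345; and Cebpd, at 304 and 302 against 191 to 300. Il6, named after its values were seen, was at 11.2 and 16.8 CPM in control and 2.38 to 5.34 in the knockdown libraries. Of the other acute-phase proteins 13 of 26 were tested, with 3 below and 1 above. They were led by the copper carrier ceruloplasmin (Cp), at 772 and 778 CPM in control, 512 and 573 with hairpin 1 and 752 and 920 with hairpin 2, followed by Cd14 (27.4 to 56.7) and complement C3 (16.8 to 69.9). Of the other antimicrobial and granule proteins 9 of 22 were tested, with 3 below and 3 above, and of the receptors and binding partners 15 of 19, with 5 below and 1 above. None of these lists had a gene that edgeR called between knockdown and control tumour cells, where 0 of 15776 genes were called and 3148 had an unadjusted p under 0.05.

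In neutrophils the antimicrobial list had 7 of 11 tested genes below both controls and 0 above, where 9.91% of all neutrophil genes were below and 12.6% above (13.1% and 9.61% with TMM scaling). The most abundant was the lysozyme Lyz2, at 1904 and 2279 CPM in control and 2245 to 3461 in the knockdown libraries, which was not among them. Chil3, a chitinase-like protein of young neutrophils and monocytes, was at 1269 and 908 CPM in control and 64.7 to 351 in the knockdown libraries, and Wfdc17, which like Slpi has a whey acidic protein domain, at 780 and 608 against 327 to 447. The cytokine Il1b was at 9607 and 7694 CPM in control neutrophils and 5173 to 7418 in the knockdown libraries. The neutrophil marker sum of this class was also lower in the knockdown libraries. The part of the class's make-up in these values was not tested.

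As far as the sources show, the comparison of anti-PD1 with IgG did not choose the members, although earlier results of these data were known. It was tested across all genes. edgeR, with genotype and treatment as terms, called 0 of 15776 genes in tumour cells (0% called), where 129 had an unadjusted p under 0.05 and DESeq2 also called 0. Of the members, Slpi (0.98 ± 0.35), S100a9 (0.71 ± 0.33) and Hp (0.24 ± 0.89) were higher with anti-PD1 in 3 of 3 lines, against 13.3% of all genes, each with an adjusted p of 1.00. The neutrophil share of cells was also higher with anti-PD1 in each line, and its part in the S100a9 value was not tested. With the cell line as a block, which pairs the IgG and anti-PD1 libraries of a line, 1 gene was called (0.00634% of those tested), and it was Slpi (0.97 ± 0.06, adjusted p 0.0110, higher in 3 of 3 lines). That call ended when each cell was counted for at most 10 UMIs of a member (0.62, adjusted p 0.763). On that scale Slpi went from 30.0 to 34.1 CPM in control, 5.40 to 11.4 with hairpin 1 and 16.2 to 27.0 with hairpin 2, and 1 cell of the control library with anti-PD1 held 1234 of its 7035 Slpi UMIs. After thinning to 1000 UMIs the share of tumour cells with Slpi went from 3.48% [2.97 to 4.06] to 3.97% [3.43 to 4.57] in control, from 0.600% [0.350 to 0.959] to 1.31% [0.943 to 1.78] with hairpin 1, and from 2.15% [1.75 to 2.60] to 3.43% [2.95 to 3.97] with hairpin 2, with exact 95% binomial intervals. The intervals overlapped in the control and hairpin 1 lines and not in the hairpin 2 line. They cover the sampling of cells within 1 library and not the spread between libraries, so they are no test of anti-PD1.

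**Figure D5:**
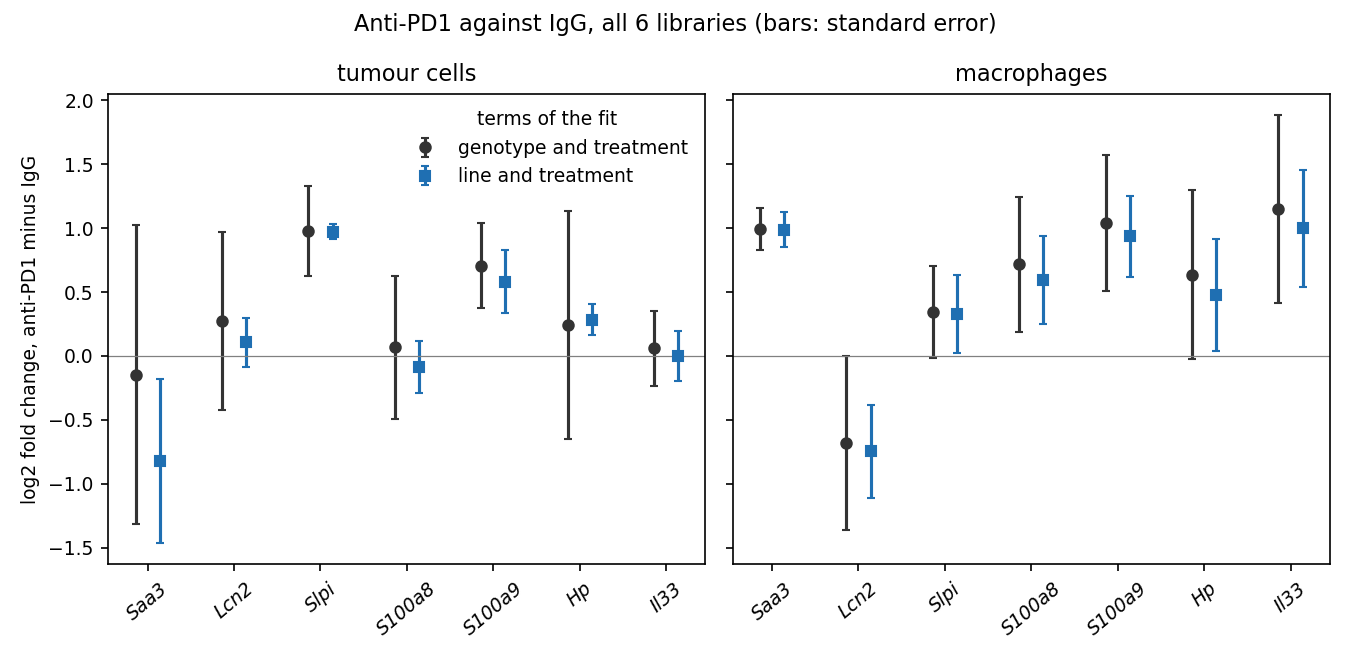
Log2 fold change of anti-PD1 over IgG, with its standard error, for 7 genes in tumour cells and macrophages, from edgeR fits with genotype and treatment (circles) or line and treatment (squares) over 6 libraries. Slpi in tumour cells and Saa3 in macrophages have the narrowest errors around a value near 1, and Saa3 in tumour cells has the widest.

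In macrophages edgeR called 0 of 12352 genes for anti-PD1 (0% called, 268 with an unadjusted p under 0.05, and 0 by DESeq2). Saa3 in these cells went from 27.1 to 46.6 CPM in control, from 12.6 to 25.1 with hairpin 1 and from 9.03 to 22.0 with hairpin 2, a difference of 0.99 ± 0.17 with an unadjusted p of 0.000488 and an adjusted p of 1.00, or 0.102 with the line as a block. Few macrophages carried it: 63 of the 71 UMIs in the hairpin 1 library with IgG came from 1 cell. S100a9 (1.04 ± 0.53) and Il33 (1.15 ± 0.73) were also higher in 3 of 3 lines, against 12.6% of all genes, and Lcn2 (-0.68 ± 0.68) was lower, against 14.9%, none of them called. These directions rest on few UMIs, given IgG before anti-PD1. S100a9 had 4 and 9 with hairpin 1 and 7 and 29 with hairpin 2, and Il33 had 5 and 9, then 8 and 45. Lcn2 had 29 and 28 in control, 9 and 2 with hairpin 1, and 22 and 19 with hairpin 2. The neutrophil share of cells was also higher with anti-PD1 in each line, and its part in the S100a9 value was not tested. In neutrophils 0 of 7640 genes were called (0% called, 368 with an unadjusted p under 0.05, and 1 by DESeq2, Ccnd1), and the 6 tested members had differences between -0.06 and 0.33. With the line as a block 4 neutrophil genes were called (0.0524%), none of them a member. Of the 6 tested members, 0 were higher in 3 of 3 lines and 0 were lower, against 17% and 13.9% of all neutrophil genes. The 4 lists had 0 genes called in any of the 3 classes, with medians between -0.06 and 0.43.

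No member passed a test of whether the anti-PD1 difference itself differed between knockdown and control. The interaction was called for 0 of 16407 genes in tumour cells (42 with an unadjusted p under 0.05, and 0 by DESeq2) and 0 of 12855 in macrophages (159, and 5 by DESeq2). For Slpi in tumour cells it was 0.20 ± 0.81 (edgeR adjusted p 1.00). The anti-PD1 difference had one direction in control and the other in both hairpin lines for 0 of 7 members in tumour cells (24.1% of all genes), 2 of 7 in macrophages (26.8%) and 3 of 6 in neutrophils (21.6%).

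By the likeness of their levels over 18 sums (3 classes in 6 libraries, Pearson correlation of log2(CPM + 1) over the 9610 genes whose average reached 10 CPM), the gene most like Slpi was S100a8 (0.980), followed by Grina and Il1rap. Those most like S100a8 were Slpi, Sgms2 and Grina. For Lcn2 they were Chp1 (0.941), Thbs1 and Cd44, for Saa3 Ier3 (0.885), Pip4k2c and Arid5b, and for Il33 Nipal1 (0.939), Rab22a and Snx21. The 18 sums share libraries and lines, so these values describe the class pattern and carry no test.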

How the data were processed

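The deposited matrices hold whole-number UMI counts per gene and barcode, not normalised. The submitters' processing notes name Cell Ranger 7.0.1 and mm10; other settings are not given in the sources used here. Barcodes with fewer than 300 genes or over 20% mitochondrial UMIs were removed, and Scrublet (scanpy 1.11.5, expected rate 0.06) removed 0.866% to 1.66% as doublets, which left 5037 to 8734 cells per library. The members, gene lists and alternatives were chosen with earlier results of these data known. Named genes are the members, the 3 most abundant of each list with the members' receptors, and the 3 most alike.

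For each class, 1 sum of counts was made from each library and edgeR 4.0.16 was run on them (TMM, filterByExpr, quasi-likelihood F test), with Benjamini-Hochberg adjustment over all genes and a call at an adjusted p under 0.05. The terms were genotype and treatment (3 residual degrees of freedom) or their interaction (2). The standard errors given are the absolute log2 difference divided by the square root of the F statistic. DESeq2 1.42.0 was the other tool. The IgG and anti-PD1 libraries of a line are the same cell line, which pairs them; deviations of paired knockdown libraries from their group means correlated at 0.810 in tumour cells, 0.505 in macrophages and 0.173 in neutrophils. Nothing says that libraries came from separate animals, so p-values measure the spread between these libraries. On simulated counts with the tumour cell means, the test recovered 53% of genes changed by a log2 of 1 and 97% of those changed by 2, with 7 false calls over 15776 genes. Those counts had 1 fixed spread for all genes and no difference between lines. The recovered shares do not carry over to members with wide errors, such as Saa3 in tumour cells (± 1.17 for anti-PD1).

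Gene positions come from GENCODE M21, and promoter windows from RefSeq on GRCm38.p6. Hp had no window.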

Additional observations from a re-analysis of the deposited data

Results flagged for a closer look

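Under anti-PD1, 5 values moved one way in the control line and the other way in both hairpin lines, in 2 classes. The interaction estimates are the difference of the anti-PD1 effect between knockdown and control, and none passed in edgeR (adjusted p 1.00 each). In neutrophils Lcn2 was lower with anti-PD1 in control (303 to 195 CPM) and higher with hairpin 1 (14.2 to 64.7) and hairpin 2 (50.5 to 92.7), with an interaction of 1.78 ± 0.74. S100a8 (0.73 ± 0.49) and Hp (0.44 ± 0.54) did the same in neutrophils. In macrophages Hp (2.18 ± 1.19) and Slpi (1.10 ± 0.68) did so, and Hp rested on 2 UMIs in the hairpin 1 library with IgG. Opposite directions of this kind were found in 3 of 6 members in neutrophils and 21.6% of all genes tested there, and in 2 of 7 members and 26.8% of genes in macrophages.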

How the results depend on the processing

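Each log2 difference here is anti-PD1 minus IgG. With the replicate block (line and treatment), 1 gene was called in tumour cells, Slpi, and 4 in neutrophils (Rgs16, Col1a2, Fst and Rcan1, named after their values were seen). The block left macrophages at 0 calls, and S100a8 and Il33 in tumour cells went from 0.07 and 0.06 to -0.087 and -0.000203. With members capped at 10 UMIs per cell, chosen after the data were seen, Saa3 in tumour cells went from -0.15 to 0.019, and with the cap and the block together Il33 was at -0.035. With no filter on low counts edgeR called 58 genes in macrophages (Saa3 among them, adjusted p 1.59e-06), 52 in neutrophils and 72 for the macrophage interaction. DESeq2 called 5 for that interaction (Sprr1a, Adh7, Cma1, Mcpt2 and Tpsb2) and 1 in neutrophils (Ccnd1), and macrophage rules of 2 or 6 UMIs gave 1 call each (Adh7). With a neutrophil rule of 2 UMIs the members below both controls in that class went from 7 to 4. Leaving out 1 library at a time, neutrophil calls were 0 to 4 (4 without hairpin 2 IgG, 1 without either control). In tumour cells such fits gave -2.47 to 0.41 for Saa3, -0.75 to 0.65 for Lcn2, -0.78 to 0.42 for S100a8, -0.67 to 1.36 for Hp and -0.34 to 0.31 for Il33. In macrophages Slpi ran from -0.042 to 0.78. Each of these tumour cell minima came without the hairpin 2 library with anti-PD1, and the macrophage minimum without the hairpin 1 library with IgG. Where an arm kept 1 library, it was assumed to vary like the other groups. The cause of these shifts was not tested. With 1 library left out, members below the controls that were kept numbered 5 to 6 in tumour cells, 5 to 7 in macrophages and 7 to 8 in neutrophils. Such a count cannot fall when a library is dropped, so it is no check of the result. Of all alternatives, these counts included, 279 kept their direction and side of the threshold, or a count within 1.5 times. Another 15 log2 differences changed direction, 2 became called, and 13 counts changed by more.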
